A study of Mus musculus with 53 samples.

Results

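The genes described here encode histone variants, the proteins that replace the standard histones in some nucleosomes. They are the H2A.Z genes H2afz and H2afv, the H2A variants H2afx and H2afj, the macroH2A genes H2afy and H2afy2, the H3.3 genes H3f3a and H3f3b, the linker histone H1f0 and the centromeric Cenpa. They were chosen by symbol, and all 10 were found among the 43432 genes listed in each of the 2 RNA tables. The RNA came from mouse embryonic fibroblasts (MEF), either knocked out for Anp32e (KO) or wild type (WT). In the DAC table, in FPKM, the treatment was DAC (decitabine, a nucleoside that blocks DNA methyltransferases) or DMSO, the solvent control, with 3 KO DAC, 3 WT DAC, 2 KO DMSO and 2 WT DMSO libraries. In the siRNA table, in RPKM, the cells carried an siRNA labelled H2AZ or the control siRNA NT, and there are 3 libraries each of KO H2AZ siRNA, WT H2AZ siRNA, KO NT siRNA and WT NT siRNA. Both units scale reads by gene length and sequencing depth, so levels of different genes can be set beside each other within a table. Neither the knockout allele nor the embryos, doses or siRNA sequence are stated in the sources used here.

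Standard histones are made in S phase to package new DNA, whereas variant histones are also made outside it and are placed by their own chaperones. H2A.Z is put into nucleosomes near active promoters by the SRCAP and Tip60-p400 remodellers, and the chaperone ANP32E takes it out. H3.3 is placed by HIRA at active genes and by DAXX and ATRX at silent repeats, macroH2A is found in silent chromatin such as the inactive X chromosome, and CENP-A marks the centromere.

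Anp32e, which checks the genotype labels, was at 4.87 to 7.48 FPKM in the 5 KO libraries of the DAC table, against 14.0 to 17.2 FPKM in the 5 WT libraries. Among siRNA table libraries it was at 4.36 to 6.12 RPKM in the 6 KO libraries, against 16.9 to 21.4 RPKM in the 6 WT libraries. It was thus lower but present in every KO library. The Y-linked Ddx3y was at 3.02 to 5.43 FPKM in KO and at most 0.0720 FPKM in WT of the DAC table, and at 3.08 to 6.73 RPKM in KO and 0 in WT of the siRNA table, so the loss of Anp32e cannot be told apart from the sex and origin of the cells. The X-linked Xist was at 0.579 to 44.4 FPKM in KO and 136 to 210 FPKM in WT of the DAC table. In the siRNA table it was at most 0.00144 RPKM in KO and 4.12 to 6.33 RPKM in WT. Among KO libraries, only those of the DAC table held more than a trace of Xist. Of 10 fibroblast markers, at least 9 were at 1 FPKM or more in every library of the DAC table and at least 8 at 1 RPKM or more in every library of the siRNA table. Of 9 mesothelial markers, the sum was 111 to 129 FPKM in KO DAC, 42.6 to 57.0 FPKM in WT DAC, 925 to 953 FPKM in KO DMSO and 10.1 to 12.1 FPKM in WT DMSO. It was 149.6 to 160.4 RPKM in KO H2AZ siRNA, 22.8 to 23.2 RPKM in WT H2AZ siRNA, 167 to 189 RPKM in KO NT siRNA and 22.1 to 23.5 RPKM in WT NT siRNA. Lrrn4 and Gpm6a were at 0 in both WT DMSO libraries, and Wt1 was at 0 in all WT libraries of the siRNA table. The part of these markers in any difference below was not tested, and fewer cells of a type cannot be told apart from less RNA per cell.

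Recovered depth, in reads per library, was 27503472 to 36910532 in DAC table libraries and 31928320 to 47172427 in siRNA table libraries. The fewest reads behind a value were 85, for H2afv in a WT H2AZ siRNA library. KO DAC replicate 1 and WT DAC replicate 3 stood apart from the other libraries of their groups. All 10 histone variant genes had their lowest KO DAC value in replicate 1 and their lowest WT DAC value in replicate 3, against 39.4% and 46% of all 16435 genes tested. The median gap to the other libraries of the group, on the log2 scale, was -0.26 over the 10 genes in KO DAC replicate 1, against -0.0025 over all genes. It was -0.33 in WT DAC replicate 3, against -0.038 over all genes. The summed level of 12 S-phase genes was 374 FPKM in KO DAC replicate 1, against 392 and 383 FPKM in the other KO DAC libraries, and 352 FPKM in WT DAC replicate 3, against 388 and 385 FPKM in the other WT DAC libraries. Values without these apart libraries are given below for the DAC table. The 2 libraries were picked from these same data, and all 10 genes were lowest in them. Leaving them out can narrow the spread, so the smaller adjusted p-values are descriptions and add no support to a call. In the siRNA table KO NT siRNA replicate 1 and WT NT siRNA replicate 1 lay farthest from their groups, and 3 and 1 of the 10 genes were lowest there, against 16.9% and 23.5% of genes tested. Since the 4 groups of a table share 1 estimate of the spread, leaving out DAC libraries also changes tests between DMSO libraries. For H2afx in KO against WT in DMSO the value stayed at -0.46, while the limma adjusted p went from 0.14 to 0.0011. Libraries are labelled as biological replicates, or only as replicates in KO H2AZ siRNA, and nothing states separate cultures, so p-values measure the spread between these samples. Whether groups overlap is given below as a description. Ranges of 2 or 3 libraries can part without a called difference, and the share of all genes whose ranges part was not counted.

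By level, the genes fell into an abundant and a less abundant set. In WT DMSO the order of the means was H1f0 (115 ± 0.875 FPKM), H2afz (101 ± 3.06), H3f3b (90.9 ± 0.472) and H2afx (80.2 ± 3.08), and then H3f3a (29.4 ± 1.21), H2afv (27.0 ± 2.72), H2afy2 (19.7 ± 0.574), H2afy (13.4 ± 0.0757), Cenpa (12.3 ± 0.323) and H2afj (6.14 ± 0.175; SD, n = 2). Of neighbours in that order, only H3f3a and H2afv had overlapping ranges. The order was H3f3b, H1f0, H2afz, H2afx, H2afv, H3f3a, H2afy, H2afy2, Cenpa and H2afj in KO DMSO, H2afz, H1f0, H3f3b, H2afx, H3f3a, H2afv, H2afy, Cenpa, H2afy2 and H2afj in WT DAC, and H2afz, H3f3b, H2afx, H1f0, H2afv, H2afy, H3f3a, Cenpa, H2afy2 and H2afj in KO DAC. Among the 4 most abundant genes, ranges overlapped between all neighbours in WT DAC and between H2afz and H3f3b and H2afx and H1f0 in KO DAC. In WT NT siRNA, in RPKM, H2afz led with 202 ± 2.56, followed by H3f3b (113 ± 6.42), H2afx (84.7 ± 9.40), H1f0 (72.7 ± 6.80), H3f3a (33.6 ± 2.36), Cenpa (23.2 ± 0.552), H2afv (17.2 ± 1.75), H2afy (15.9 ± 0.248), H2afj (14.6 ± 1.45) and H2afy2 (9.51 ± 0.981; SD, n = 3). KO NT siRNA began H2afz, H3f3b, H2afx and H1f0 as well. After H2AZ siRNA, H3f3b led both genotypes, H2afz stood at place 5 in KO and at place 7 in WT, and H2afv was last in both. In WT NT siRNA the ranges of H2afx and H1f0, of H2afv and H2afy, and of H2afy and H2afj overlapped. H2afz was above 98.1% of tested genes by its mean over the DAC table and above 94.7% over the siRNA table. H2afj, the lowest of the 10 in the DAC table, was above 55.0% of tested genes there. The tables were normalised separately, so levels are not compared across them.

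H2afz (ENSMUSG00000037894, chromosome 3, 137864487 to 137866922 in GRCm38) encodes the main H2A.Z protein, and it was the gene with the deepest fall of all 12668 tested after H2AZ siRNA in both genotypes. It was at 26.9, 26.4 and 30.4 RPKM in KO H2AZ siRNA, against 199, 198 and 184 RPKM in KO NT siRNA. In WT it was at 17.5, 16.6 and 17.4 RPKM with H2AZ siRNA, against 203, 199 and 203 RPKM with NT siRNA. No library of one treatment came near the other, and every KO H2AZ siRNA library lay above every WT H2AZ siRNA library, while KO and WT overlapped with NT siRNA. The log2 fold change was -2.75 ± 0.05 in KO (SE; limma adjusted p = 9.9e-11) and -3.48 ± 0.05 in WT (adjusted p = 7.0e-12). What was left came to 14.4 ± 1.13% of the NT siRNA mean in KO and 8.53 ± 0.236% in WT (SD, n = 3).

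H2afv (ENSMUSG00000041126, chromosome 11, 6427226 to 6444511) encodes the second H2A.Z protein, and it fell with the same siRNA. It was at 2.46, 2.65 and 3.93 RPKM in KO H2AZ siRNA, against 21.7, 22.1 and 23.7 RPKM in KO NT siRNA. In WT cells the values were 1.63, 1.45 and 1.63 RPKM with H2AZ siRNA, against 19.0, 15.5 and 17.1 RPKM with NT siRNA. Again no treated library overlapped a control one, and each KO library was above each WT library under the same siRNA. The log2 fold changes were -2.57 ± 0.12 in KO (adjusted p = 2.4e-07) and -2.82 ± 0.12 in WT (adjusted p = 8.4e-08), place 3 and place 4 from the lowest of all genes tested in those comparisons. The share left was 13.4 ± 3.57% of the NT siRNA mean in KO and 9.12 ± 0.597% in WT. At these levels a fold change on log2(RPKM + 1) understates the change, and limma-voom on the recovered reads gave -2.92 in KO and -3.45 in WT.

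**Figure D1:**
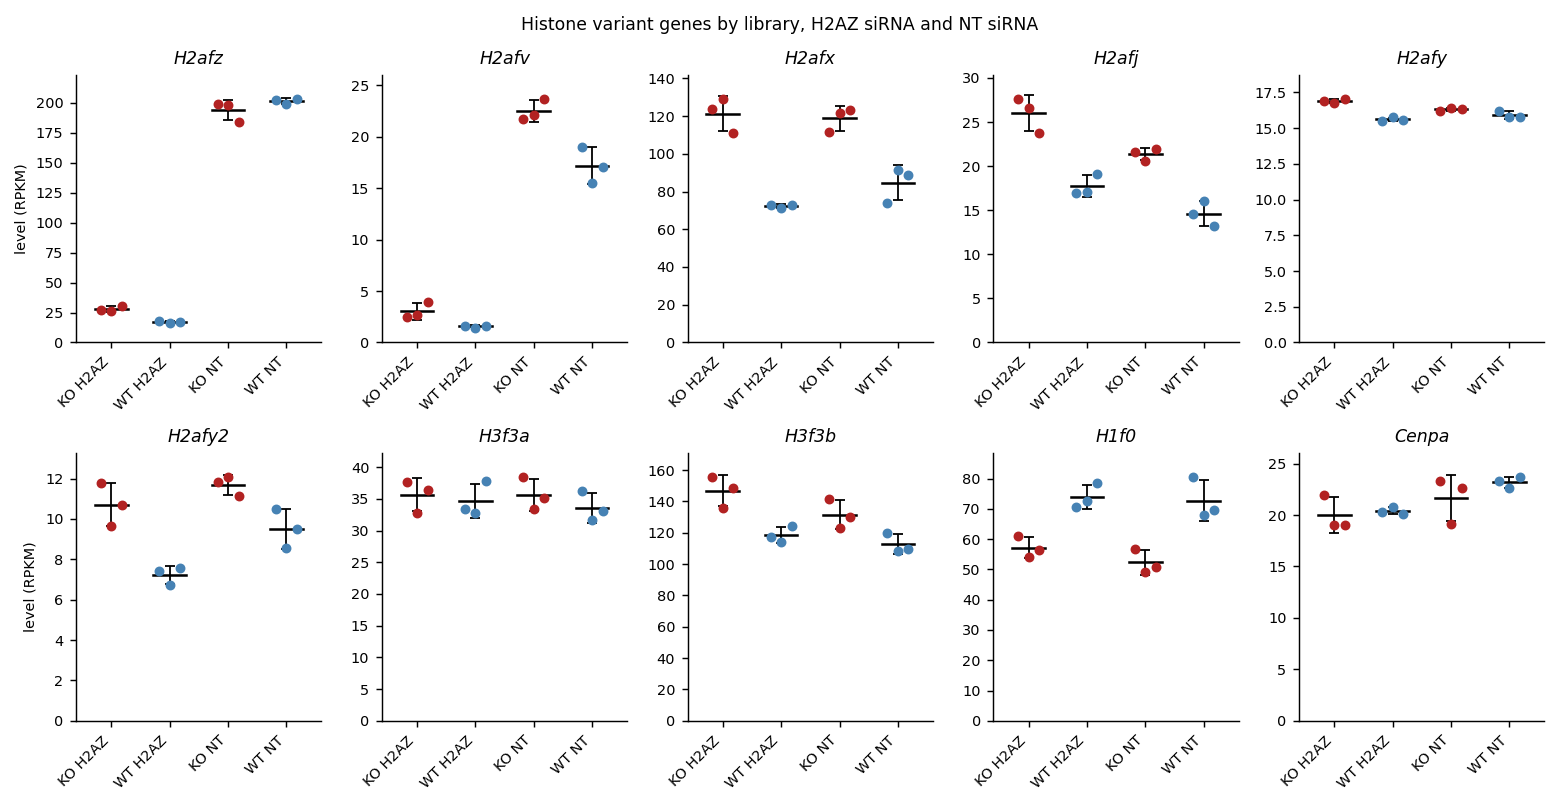
Level in RPKM (y axis, from 0) of the 10 histone variant genes in each siRNA table library (points; KO red, WT blue), with the group mean (line) and SD (bar), in KO H2AZ siRNA, WT H2AZ siRNA, KO NT siRNA and WT NT siRNA. H2afz and H2afv drop to 27.9 ± 2.18 and 3.01 ± 0.803 RPKM in KO H2AZ siRNA and 17.2 ± 0.476 and 1.57 ± 0.103 RPKM in WT H2AZ siRNA, and of the other 8 genes H2afj varies most over the libraries, by 2.10 times.

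The summed H2A.Z level, H2afz plus H2afv, was 30.9 ± 2.97 RPKM in KO H2AZ siRNA, 18.8 ± 0.578 RPKM in WT H2AZ siRNA, 216 ± 7.45 RPKM in KO NT siRNA and 219 ± 4.06 RPKM in WT NT siRNA. KO cells thus kept 14.3 ± 1.37% of their control sum and WT cells 8.57 ± 0.264%. After H2AZ siRNA, KO cells had more H2afz than WT cells, by 0.67 ± 0.05 (adjusted p = 1.5e-06), and more H2afv, by 0.63 ± 0.12 (adjusted p = 6.3e-04). The H2AZ siRNA response of H2afz differed between the genotypes by 0.72 ± 0.08, KO minus WT (limma adjusted p = 0.012). That call ended without the first NT siRNA library of both genotypes (adjusted p = 0.13) and without any filter (0.068), and without any 1 of WT H2AZ siRNA replicates 1 and 2 and WT NT siRNA replicates 1 and 2 (highest 0.068). The difference for H2afv was 0.25 ± 0.16 and did not pass (adjusted p = 0.70), and limma-voom on the recovered reads gave 0.53 (adjusted p = 0.58). With NT siRNA, H2afv was higher in KO by 0.37 ± 0.12 (adjusted p = 0.014), which missed the threshold when KO NT siRNA replicate 3 or WT NT siRNA replicate 2 was dropped (highest adjusted p 0.06), and H2afz stood at -0.06 ± 0.05 (adjusted p = 0.38).

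With DAC the H2A.Z genes parted. H2afv was at 18.1, 19.6 and 19.3 FPKM in KO DAC, against 31.6 and 29.9 FPKM in KO DMSO. In WT it was at 20.5, 19.6 and 16.5 FPKM with DAC, against 25.1 and 28.9 FPKM with DMSO. Every DAC library was below every DMSO library, and the log2 fold changes were -0.67 ± 0.10 in KO (adjusted p = 5.9e-04) and -0.50 ± 0.10 in WT (adjusted p = 0.0054). Dropping WT DMSO replicate 2 left the WT fall short of the threshold (adjusted p = 0.061). Without both apart libraries the values were -0.63, adjusted p = 4.5e-04 in KO and -0.41, adjusted p = 0.0051 in WT. H2afz was at 96.8, 127 and 127 FPKM in KO DAC, against 81.9 and 88.5 FPKM in KO DMSO. WT libraries stood at 119, 114 and 84.9 FPKM with DAC, against 103 and 99.2 FPKM with DMSO. Its KO libraries did not overlap and its WT libraries did, and neither change passed in the main fit: 0.44 ± 0.16 in KO (adjusted p = 0.051) and 0.05 ± 0.16 in WT (adjusted p = 0.87). With all libraries kept, the KO rise passed with limma-voom on the recovered reads (adjusted p = 0.018) and with each library centred on its median (0.029). It did not pass without the filter (0.088) or with the replicate number as a block (0.071). Without KO DAC replicate 1 and WT DAC replicate 3 the values were 0.57, adjusted p = 1.2e-04 in KO, 0.20, adjusted p = 0.018 in WT and 0.37, adjusted p = 0.0073 for the difference between the genotypes.

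H2afv made up 15.7, 13.4 and 13.2% of the summed H2A.Z level in KO DAC and 14.7, 14.7 and 16.3% in WT DAC, against 27.9 and 25.2% in KO DMSO and 19.5 and 22.6% in WT DMSO. All 6 DAC libraries were below all 4 DMSO libraries in this share. Among siRNA libraries the mean share was 9.65 ± 1.60% in KO H2AZ siRNA, 8.36 ± 0.297% in WT H2AZ siRNA, 10.4 ± 0.854% in KO NT siRNA and 7.86 ± 0.672% in WT NT siRNA. The share under H2AZ siRNA overlapped that under NT siRNA in both genotypes.

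Promoter sequences are shown for H2afz, which encodes the main H2A.Z protein, for H2afj, which rose with DAC in KO, and for H3f3a, which fell with DAC in both genotypes. They are the 250 bases before the RefSeq start in GRCm38, at chr3:137864237-137864486 on the plus strand for H2afz, chr6:136807998-136808247 on the plus strand for H2afj and chr1:180813606-180813855 on the minus strand for H3f3a, read in the direction of the gene. Capitals mark matches on either strand to CCAAT (the CCAAT box), GGGCGG (the GC box), TATAAA (the TATA box), TTTGAA (the cell cycle homology region), TGACGTCA (the cAMP element) or the E2F sites TTTGGCGC and TTCCCGCC.
H2afz: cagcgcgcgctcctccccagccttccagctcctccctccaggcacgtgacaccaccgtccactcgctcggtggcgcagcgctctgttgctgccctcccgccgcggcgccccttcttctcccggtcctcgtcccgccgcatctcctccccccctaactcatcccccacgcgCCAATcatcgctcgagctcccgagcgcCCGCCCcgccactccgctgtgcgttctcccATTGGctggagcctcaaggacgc
H2afj: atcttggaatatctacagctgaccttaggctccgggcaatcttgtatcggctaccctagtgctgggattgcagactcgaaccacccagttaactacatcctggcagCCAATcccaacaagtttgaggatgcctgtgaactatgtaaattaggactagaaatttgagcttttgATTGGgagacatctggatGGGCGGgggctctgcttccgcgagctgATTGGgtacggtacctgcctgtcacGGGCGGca
H3f3a: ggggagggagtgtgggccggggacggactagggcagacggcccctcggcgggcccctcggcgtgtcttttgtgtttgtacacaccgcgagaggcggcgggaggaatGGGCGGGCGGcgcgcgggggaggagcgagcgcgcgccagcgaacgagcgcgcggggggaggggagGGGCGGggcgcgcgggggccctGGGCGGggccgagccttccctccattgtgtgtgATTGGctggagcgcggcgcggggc
H2afz held 2 CCAAT boxes and 1 GC box in these 250 bases, H2afj 3 CCAAT boxes and 2 GC boxes, and H3f3a 1 CCAAT box and 4 GC boxes, of which 2 overlap. Of 32851 promoters of the same length, 33.8% held CCAAT, 32.7% GGGCGG, 12.4% TATAAA, 16% TTTGAA, 1.55% TGACGTCA, 0.417% TTTGGCGC and 1.86% TTCCCGCC. RefSeq promoters matched 9 of the 10 genes. Of those not shown, H2afv held TTTGAA at position -41 from the start and H3f3b held TATAAA at position -27. Since DAC acts on CpG methylation, the CpG content (observed over expected, where the median promoter has 0.373 and the upper quartile starts at 0.723) was read from the same windows. It was 1.05 for H3f3a, 1.04 for H2afz, 1.04 for H3f3b, 0.96 for H2afv, 0.86 for H2afy, 0.70 for H1f0, 0.57 for H2afy2, 0.54 for H2afj and 0.40 for Cenpa. Both genes that fell with DAC in both genotypes, H2afv and H3f3a, were thus in the CpG-rich upper quartile, as were H2afy, which rose with DAC in KO by the test, and H2afz and H3f3b, which did not pass the test with DAC. These windows can lie inside the gene where RefSeq lists an earlier start, as for H3f3b and H2afy2, and methylation was not measured.

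H2afj (ENSMUSG00000060032, chromosome 6, 136808248 to 136810074) encodes an H2A variant close in sequence to standard H2A, and it varied most over the DAC table, by 3.78 times between its highest and lowest library. It was at 5.15, 7.30 and 7.79 FPKM in KO DAC, against 2.47 and 2.57 FPKM in KO DMSO. In WT it was at 7.63, 9.32 and 6.87 FPKM with DAC, against 6.01 and 6.26 FPKM with DMSO. KO DMSO stood lowest, with both libraries below every other library of the table. H2afj rose with DAC in KO by 1.12 ± 0.16 (adjusted p = 5.5e-04), and in WT the value was 0.32 ± 0.16 (adjusted p = 0.19; without both apart libraries 0.40, adjusted p = 0.017). The DAC response was larger in KO by 0.80 ± 0.23 (limma adjusted p = 0.034), but this call ended without any 1 of the 10 libraries other than KO DAC replicate 1 and WT DAC replicate 2 (highest adjusted p 0.10) and without the filter (0.059). Without both apart libraries it was 0.88, adjusted p = 0.0038. With DMSO the KO level lay below the WT level, at -1.02 ± 0.18 (adjusted p = 0.0017), and in DAC the genotypes overlapped (-0.21 ± 0.14, adjusted p = 0.34).

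In the siRNA table H2afj lay the other way round between the genotypes. It was at 27.6, 26.6 and 23.8 RPKM in KO H2AZ siRNA, against 16.9, 17.0 and 19.1 RPKM in WT H2AZ siRNA. With NT siRNA it was at 21.6, 20.6 and 21.9 RPKM in KO, against 14.6, 16.1 and 13.2 RPKM in WT. Every KO library was above every WT library of the same siRNA, by 0.53 ± 0.08 with H2AZ siRNA (adjusted p = 1.1e-04) and 0.52 ± 0.08 with NT siRNA (adjusted p = 1.2e-04). The difference between the tables was not tested, since they were normalised separately. H2AZ siRNA raised H2afj in both genotypes, by 0.27 ± 0.08 in KO (adjusted p = 0.024; 0.032 with the replicate number as a block) and 0.26 ± 0.08 in WT (adjusted p = 0.039). Without the first NT siRNA library of both genotypes the adjusted p was 0.054 in KO and 0.087 in WT, and without the filter it was 0.068 in KO and 0.10 in WT. The KO call also ended without KO H2AZ siRNA replicate 1 or 2 or KO NT siRNA replicate 2 (highest adjusted p 0.09). The WT call ended without any WT H2AZ siRNA library, WT NT siRNA replicate 1 or 3, KO H2AZ siRNA replicate 2 or KO NT siRNA replicate 3 (highest 0.14).

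The genes most like H2afj over the 10 DAC table libraries, by the root mean square difference of log2(FPKM + 1) around each gene's mean, were Plec (0.106) and Lgals1 (0.107), among 7406 genes with a mean of at least 5. The libraries compared include KO DAC replicate 1 and WT DAC replicate 3, and the likeness without them was not computed. Plec encodes the cytoskeletal linker plectin and Lgals1 the secreted lectin galectin-1. Lgals1 was at 1532 ± 185 FPKM in KO DAC, 1582 ± 229 FPKM in WT DAC, 652 ± 2.79 FPKM in KO DMSO and 1285 ± 43.7 FPKM in WT DMSO. Plec was at 69.5 ± 8.05 FPKM in KO DAC, 77.0 ± 11.4 FPKM in WT DAC, 32.2 ± 0.302 FPKM in KO DMSO and 62.5 ± 2.57 FPKM in WT DMSO. Over the 12 siRNA table libraries the gene most like H2afz was H2afv (0.280), and the next was Ywhae, which encodes 14-3-3 epsilon (0.998), among 5894 genes. The gap of 0.998 is wide, since Ywhae fell less than H2afz, so it was only the next nearest of the genes compared. Ywhae was at 44.5 ± 1.33 RPKM in KO H2AZ siRNA, 52.7 ± 0.575 RPKM in WT H2AZ siRNA, 110.0 ± 6.21 RPKM in KO NT siRNA and 119.9 ± 3.39 RPKM in WT NT siRNA. Its log2 fold change was -1.29 ± 0.05 (adjusted p = 2.0e-08) in KO and -1.17 ± 0.05 (adjusted p = 5.8e-08) in WT, place 7 and place 5 from the lowest. The other histone variant genes had group means within 1 log2 unit of each other in both tables. No such genes are therefore named for them, except for H2afx below.

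H2afx (ENSMUSG00000049932, chromosome 9, 44334715 to 44336077) encodes H2A.X, which is phosphorylated at DNA breaks. It was at 124, 129 and 111 RPKM in KO H2AZ siRNA, against 72.8, 71.2 and 73.0 RPKM in WT H2AZ siRNA. With NT siRNA it was at 111, 121 and 123 RPKM in KO, against 73.9, 91.4 and 88.7 RPKM in WT. Every KO library was above every WT library, by 0.73 ± 0.08 with H2AZ siRNA (adjusted p = 1.3e-05) and 0.49 ± 0.08 with NT siRNA (adjusted p = 2.4e-04). H2AZ siRNA itself gave 0.03 ± 0.08 in KO (adjusted p = 0.83) and -0.22 ± 0.08 in WT (adjusted p = 0.085; 0.0093 without the first NT siRNA libraries). In the DAC table H2afx was at 65.3, 93.5 and 93.7 FPKM in KO DAC, against 55.6 and 60.6 FPKM in KO DMSO. In WT the level was 96.6, 87.4 and 61.4 FPKM with DAC, against 78.0 and 82.4 FPKM with DMSO. Its KO libraries did not overlap between DAC and DMSO, but no comparison passed there in the main fit. The values were 0.51 ± 0.21 for DAC in KO (adjusted p = 0.075) and -0.46 ± 0.23 for KO in DMSO (adjusted p = 0.14). With all libraries kept, DAC in KO passed with limma-voom on the recovered reads (adjusted p = 0.032) and median centring (0.048). KO in DMSO passed in neither (0.076 and 0.13). Without both apart libraries DAC in KO stood at 0.68, adjusted p = 2.0e-04, and KO in DMSO at -0.46, adjusted p = 0.0011.

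**Figure D2:**
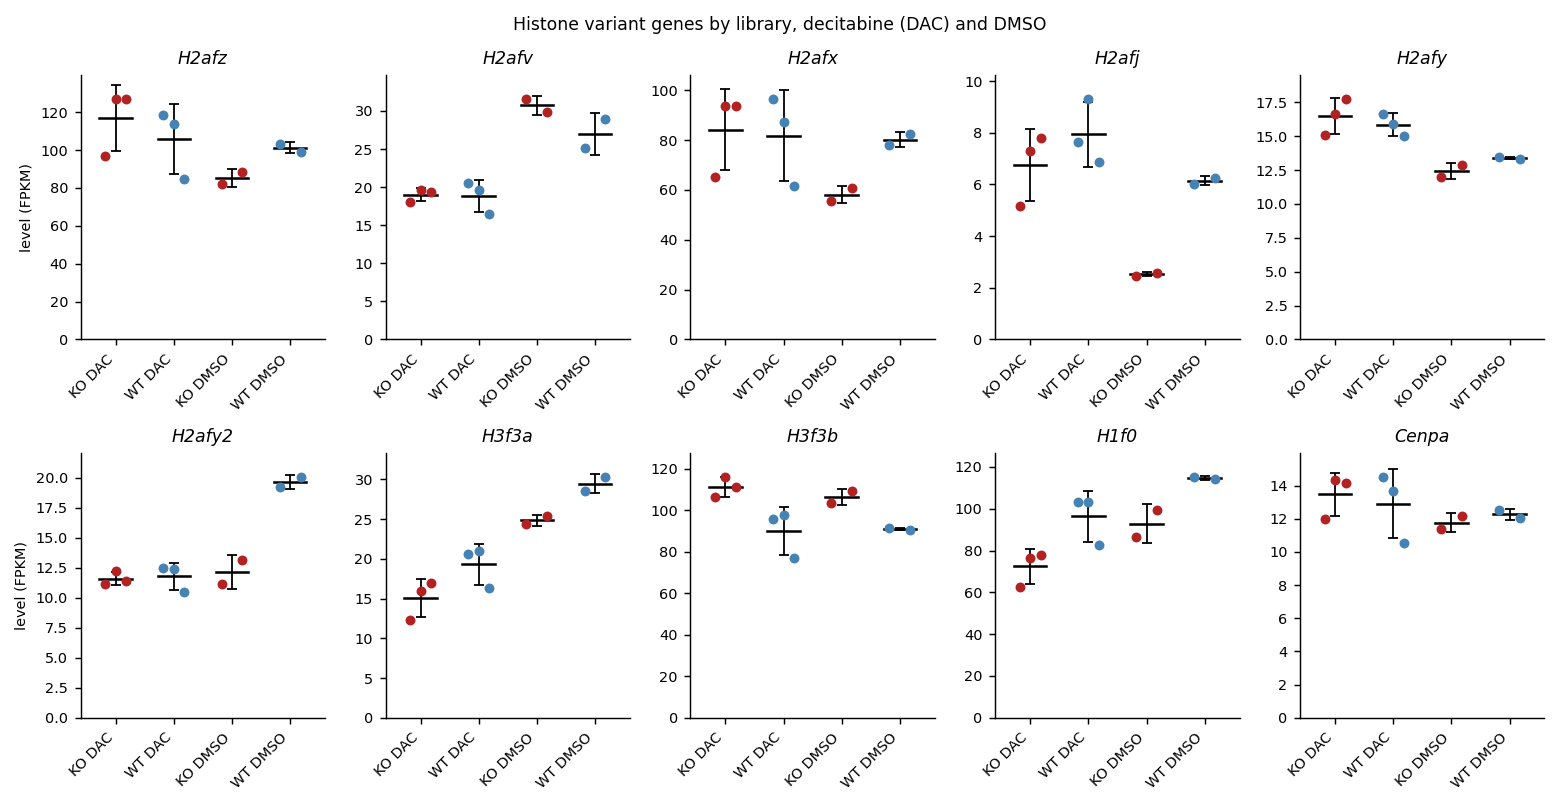
Level in FPKM (y axis, from 0) of the 10 histone variant genes in each DAC table library (points in replicate order; KO red, WT blue), with the group mean (line) and SD (bar), in KO DAC, WT DAC, KO DMSO and WT DMSO. KO DAC replicate 1 and WT DAC replicate 3 are the lowest points of their groups for all 10 genes, and H2afj in KO DMSO (2.52 ± 0.0754 FPKM) lies below every other group.

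The macroH2A genes moved in different ways. H2afy (ENSMUSG00000015937, chromosome 13, 56073622 to 56135626) encodes macroH2A1, and H2afy2 (ENSMUSG00000020086, chromosome 10, 61738640 to 61784604) encodes macroH2A2. H2afy was at 15.1, 16.6 and 17.8 FPKM in KO DAC, against 11.98 and 12.8 FPKM in KO DMSO. In WT it was at 16.7, 15.9 and 14.99 FPKM with DAC, against 13.4 and 13.3 FPKM with DMSO. No DAC library overlapped a DMSO one, and H2afy rose in KO by 0.38 ± 0.07 (adjusted p = 0.0033) and stood at 0.23 ± 0.07 in WT (adjusted p = 0.053; without both apart libraries 0.26, adjusted p = 0.011). With all libraries kept, the WT value passed with limma-voom on the recovered reads (adjusted p = 0.033) and median centring (0.021). It did not pass with the replicate block (0.13) or without the filter (0.077). H2afy2 was at 11.1, 12.3 and 11.4 FPKM in KO DAC, against 11.2 and 13.1 FPKM in KO DMSO. WT libraries held 12.5, 12.4 and 10.5 FPKM with DAC, against 19.3 and 20.1 FPKM with DMSO. Both WT DMSO libraries were above every other library of the table, which overlapped one another. H2afy2 fell with DAC in WT, at -0.70 ± 0.09 (adjusted p = 7.7e-04), against -0.06 ± 0.09 in KO (adjusted p = 0.64). The DAC responses differed by 0.64 ± 0.13, KO minus WT (adjusted p = 0.0081), and in DMSO H2afy2 was lower in KO, at -0.66 ± 0.10 (adjusted p = 8.9e-04). These H2afy2 calls held with each library left out in turn, and without both apart libraries the responses differed by 0.59, adjusted p = 0.0088.

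In the siRNA table H2afy2 was at 11.8, 9.65 and 10.7 RPKM in KO H2AZ siRNA, against 7.41, 6.71 and 7.55 RPKM in WT H2AZ siRNA. With NT siRNA it was at 11.8, 12.1 and 11.1 RPKM in KO, against 10.5, 8.54 and 9.49 RPKM in WT. KO libraries were above WT libraries under both siRNAs, by 0.51 ± 0.08 with H2AZ siRNA (adjusted p = 2.2e-04) and 0.27 ± 0.08 with NT siRNA (adjusted p = 0.011), so that here too the genotypes lay the other way round than in DMSO. H2AZ siRNA lowered H2afy2 in WT, at -0.35 ± 0.08 (adjusted p = 0.014; 0.052 without the first NT siRNA libraries and 0.056 without WT H2AZ siRNA replicate 2), and in KO the value was -0.12 ± 0.08 (adjusted p = 0.31); the difference did not pass (0.23 ± 0.11, adjusted p = 0.60). H2afy varied least of all 10 genes in this table, from 15.5 to 17.0 RPKM over 12 libraries. Its higher level in KO H2AZ siRNA passed the test at 0.11 ± 0.03 (adjusted p = 0.018), and the call ended without WT H2AZ siRNA replicate 1 (0.057). H2afy2 made up 41.3 ± 1.94% of the macroH2A sum in KO DAC and 42.6 ± 1.37% in WT DAC, against 49.4 ± 1.65% in KO DMSO and 59.5 ± 0.840% in WT DMSO. It made up 38.7 ± 2.27% in KO H2AZ siRNA and 31.6 ± 1.51% in WT H2AZ siRNA, against 41.7 ± 0.999% in KO NT siRNA and 37.3 ± 2.14% in WT NT siRNA.

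H3f3a (ENSMUSG00000060743, chromosome 1, 180802560 to 180813605) and H3f3b (ENSMUSG00000016559, chromosome 11, 116021961 to 116026039) encode the same H3.3 protein, and only H3f3a fell with DAC by the test. H3f3a was at 12.3, 16.0 and 16.9 FPKM in KO DAC, against 24.3 and 25.3 FPKM in KO DMSO. In WT it was at 20.6, 21.0 and 16.4 FPKM with DAC, against 28.6 and 30.3 FPKM with DMSO. No DAC library reached a DMSO library of its genotype, and the log2 fold changes were -0.70 ± 0.14 in KO (adjusted p = 0.0035) and -0.59 ± 0.14 in WT (adjusted p = 0.013). Dropping either WT DMSO library left the WT fall short of the threshold (highest adjusted p 0.096). Without both apart libraries the values were -0.57, adjusted p = 1.4e-04 in KO and -0.48, adjusted p = 6.2e-04 in WT. H3f3b was at 106, 116 and 111 FPKM in KO DAC, against 104 and 109 FPKM in KO DMSO. In WT it was at 95.9, 97.5 and 76.7 FPKM with DAC, against 91.2 and 90.6 FPKM with DMSO. DAC and DMSO overlapped in both genotypes, at 0.06 ± 0.10 in KO (adjusted p = 0.65) and -0.02 ± 0.10 in WT (adjusted p = 0.90). Every KO library was above every WT library, by 0.31 ± 0.09 in DAC (adjusted p = 0.038; without both apart libraries 0.23, adjusted p = 0.0074) and by 0.22 ± 0.11 in DMSO, which did not pass (adjusted p = 0.13; without both apart libraries 0.22, adjusted p = 0.0029). The DAC call ended without any 1 library other than the 3 of WT DAC (highest adjusted p 0.11) and without the filter (0.063).

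The share of H3f3a in the H3.3 sum was 10.4, 12.1 and 13.2% in KO DAC and 17.7, 17.7 and 17.6% in WT DAC, against 19.0 and 18.8% in KO DMSO and 23.9 and 25.1% in WT DMSO. The 4 groups did not overlap in this share, and KO was below WT under both treatments. In the siRNA table the share was 19.6 ± 0.125% in KO H2AZ siRNA, 22.6 ± 0.619% in WT H2AZ siRNA, 21.3 ± 0.0662% in KO NT siRNA and 23.0 ± 0.341% in WT NT siRNA. There H3f3b was higher in KO by 0.31 ± 0.07 with H2AZ siRNA (adjusted p = 0.0018) and 0.22 ± 0.07 with NT siRNA (adjusted p = 0.012), at 155, 136 and 149 in KO H2AZ siRNA, 117, 114 and 124 in WT H2AZ siRNA, 141, 123 and 130.1 in KO NT siRNA and 120.2, 108 and 109.8 RPKM in WT NT siRNA. H3f3a overlapped between KO and WT under both siRNAs and passed in none of the siRNA table comparisons. The rise of H3f3b with H2AZ siRNA in KO (0.16) did not pass (limma adjusted p = 0.10). It passed with the replicate number as a block (adjusted p = 0.031), a pairing that the labels do not state. It also passed with median centring (0.0021), without the first NT siRNA library of both genotypes (0.032) and without KO NT siRNA replicate 1 alone (0.048). The rise did not pass with limma-voom on the recovered reads (0.087) or without the filter (0.23).

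Levels of the H3.3 genes are uncertain, since entries listed as their copies had high values in the siRNA table and low ones in the DAC table. H3f3c was at 158 to 184 RPKM in the siRNA table and 1.58 to 7.08 FPKM in the DAC table. H3f3a-ps1 was at 44.3 to 58.0 RPKM and 0.312 to 2.40 FPKM, and H3f3a-ps2 at 112 to 133 RPKM and 7.76 to 14.3 FPKM. With DAC in KO, where H3f3a fell, H3f3c stood at -1.17 ± 0.22 (adjusted p = 0.0027) and H3f3a-ps2 at -0.57 ± 0.14 (adjusted p = 0.0087). The counting of reads that fit several genes is not stated in the sources used here, and the same limit holds for H2afx and H2afj beside standard H2A genes. Over the siRNA table libraries the genes most like H2afx were the standard H2A genes Hist1h2ap (0.057) and Hist1h2ao (0.058). Hist1h2ba, which encodes an H2B, was at 97.6 to 166 RPKM there and 3.23 to 9.26 FPKM in the DAC table. It was higher in KO with H2AZ siRNA (0.56 ± 0.08, limma adjusted p = 7.8e-05) and NT siRNA (0.35 ± 0.08, limma adjusted p = 0.0018). Whether H2afx shares reads with these genes was not tested. H3f3aos, listed on the opposite strand, was at most 1.13 FPKM and 0.494 RPKM.

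**Figure D3:**
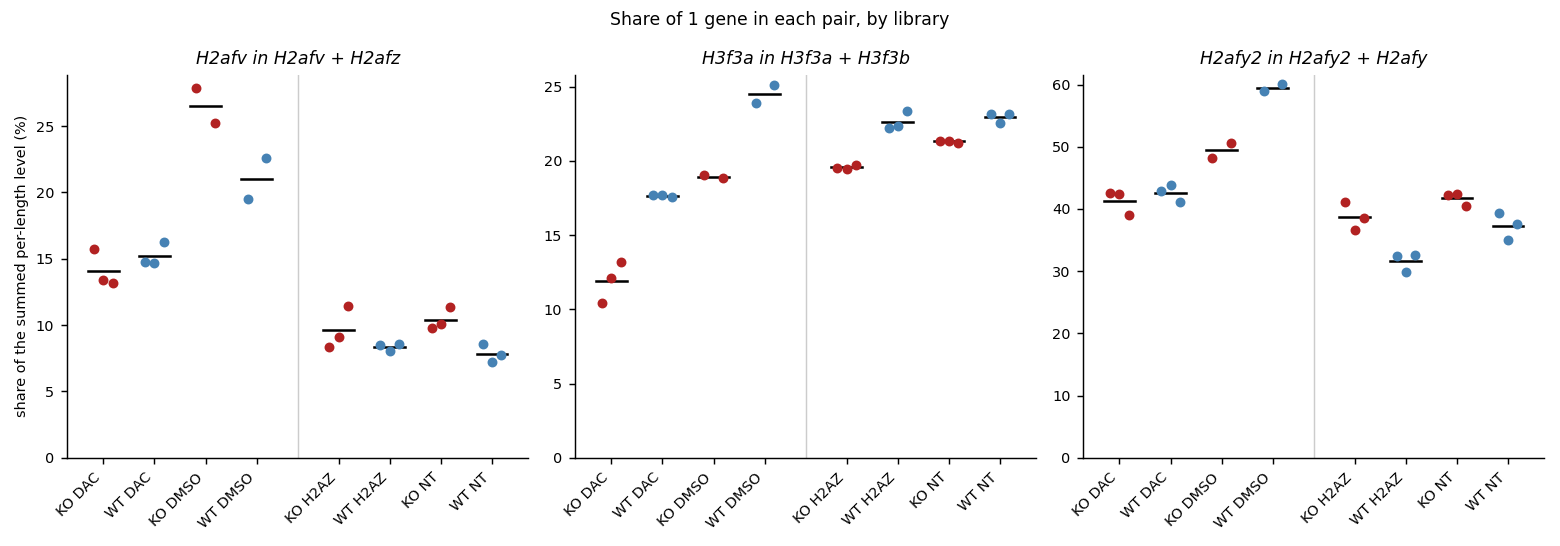
Share in percent (y axis, from 0) of H2afv in H2afv plus H2afz, of H3f3a in H3f3a plus H3f3b and of H2afy2 in H2afy2 plus H2afy in each library (points; KO red, WT blue; lines are group means), with the DAC table left of the grey line and the siRNA table right of it. In the DAC table all 3 shares are lower in DAC than in DMSO of the same genotype, such as 14.1 ± 1.41% against 26.5 ± 1.85% for H2afv in KO.

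H1f0 (ENSMUSG00000096210, chromosome 15, 79028212 to 79030504) encodes the linker histone H1.0, which accumulates in cells that leave the cycle. It was lower in KO by the test in 3 of the 4 conditions. After siRNA it was at 61.0, 54.1 and 56.6 RPKM in KO H2AZ siRNA, against 70.7, 72.7 and 78.5 RPKM in WT H2AZ siRNA. With NT siRNA it was at 56.9, 49.1 and 50.9 RPKM in KO, against 80.5, 67.9 and 69.7 RPKM in WT. All KO libraries were below all WT libraries, at -0.36 ± 0.08 with H2AZ siRNA (adjusted p = 0.0015) and -0.47 ± 0.08 with NT siRNA (adjusted p = 2.7e-04). In the DAC table it was at 62.8, 76.5 and 78.1 FPKM in KO DAC, against 103, 103 and 82.4 FPKM in WT DAC. With DMSO it was at 86.3 and 99.3 FPKM in KO, against 115 and 114 FPKM in WT. The genotypes did not overlap, at -0.40 ± 0.11 in DAC (adjusted p = 0.034) and -0.30 ± 0.14 in DMSO (adjusted p = 0.11; without both apart libraries -0.30, adjusted p = 0.0068). H1f0 also fell with DAC in KO, at -0.36 ± 0.13 (adjusted p = 0.048). The DAC fall in KO missed the threshold without any 1 library other than KO DAC replicate 3 and WT DAC replicate 3 (highest adjusted p 0.26). The KO difference in DAC missed it without any 1 of KO DAC replicates 1 and 2, WT DAC replicates 1 and 2 and both WT DMSO libraries (highest 0.11). Without the filter the adjusted p was 0.081 for DAC in KO and 0.06 for KO in DAC, and with median centring the first was 0.058. Without both apart libraries together the values were -0.26, adjusted p = 0.014 for DAC in KO, and -0.41, adjusted p = 0.0054 for KO in DAC.

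Cenpa (ENSMUSG00000029177, chromosome 5, 30666877 to 30674837), which encodes the centromeric H3 variant CENP-A, passed in none of the 10 comparisons. It was at 11.96, 14.3 and 14.1 FPKM in KO DAC, 14.5, 13.7 and 10.5 FPKM in WT DAC, 11.4 and 12.2 FPKM in KO DMSO and 12.5 and 12.05 FPKM in WT DMSO. After siRNA it was at 21.98, 19.0 and 19.0 RPKM in KO H2AZ siRNA, 20.3, 20.8 and 20.1 RPKM in WT H2AZ siRNA, 23.3, 19.1 and 22.7 RPKM in KO NT siRNA and 23.3, 22.6 and 23.7 RPKM in WT NT siRNA. The groups overlapped except between the siRNAs in WT, where the log2 fold change was -0.18 ± 0.07 (adjusted p = 0.13). Its change with DAC, with both apart libraries left out, was 0.25, adjusted p = 0.0071 in KO and 0.18, adjusted p = 0.036 in WT.

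Counted over the 10 genes, the test called 2 of 10 in KO against WT in DMSO (H2afj and H2afy2, both lower), where it called 42.5% of all 16435 genes tested. It called 3 for DAC against DMSO in WT (H2afv, H2afy2 and H3f3a, all lower), against 28.3% of all genes, and 5 for DAC against DMSO in KO (H2afj and H2afy higher, H2afv, H3f3a and H1f0 lower), against 45.2%. It called 2 for KO against WT in DAC (H3f3b higher, H1f0 lower), against 22.7%, and 2 for the difference of the DAC responses (H2afj and H2afy2), against 24.1%. In the siRNA table, of 12668 genes tested, it called 6 for KO against WT with NT siRNA (H2afv, H2afx, H2afj, H2afy2 and H3f3b higher, H1f0 lower), against 64.1% of all genes. It called 4 for H2AZ siRNA in WT (H2afj higher, H2afz, H2afv and H2afy2 lower), against 15.3%, and 3 for H2AZ siRNA in KO (H2afj higher, H2afz and H2afv lower), against 25.5%. It called 8 for KO against WT with H2AZ siRNA (all but H3f3a and Cenpa, with H1f0 lower and the other 7 higher), against 62.9%, and 1, H2afz, for the difference of the siRNA responses, against 0.00789%, since H2afz was the only gene called there (1095 genes had an unadjusted p under 0.05). Without both apart libraries of a table the counts were 7, 7, 8, 3 and 4 in the DAC table comparisons in the order above, while of all genes tested the shares called were 51.1, 35.6, 51.6, 24.4 and 29.2%. The median log2 fold change of the 10 genes was -0.24 for KO against WT in DMSO, against -0.0367 over all genes tested, and 0.12 for DAC in KO, against 0.0092. It was 0.41 for KO against WT with H2AZ siRNA, against -0.121 over all genes, and 0.15 with NT siRNA, against -0.0961. The comparisons within a table share libraries and are not independent.

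The siRNA table carries a shift between the genotypes that touches these counts. Centring each library on its median moved the median log2 fold change of all genes for KO against WT by 0.15 with H2AZ siRNA and 0.12 with NT siRNA. Of the genes called, 32.2% were higher in KO with H2AZ siRNA as deposited and 54.1% after centring, and with NT siRNA 37% and 53.1%. For H2AZ siRNA against NT siRNA the higher share was 25.7% and 59.5% in KO, and 32% and 59.8% in WT. After centring, the KO differences with H2AZ siRNA were 0.82 for H2afz, 0.78 for H2afv, 0.89 for H2afx, 0.68 for H2afj, 0.66 for H2afy2, 0.26 for H2afy, 0.46 for H3f3b, 0.20 for H3f3a and -0.21 for H1f0. With NT siRNA they were 0.50 for H2afv, 0.61 for H2afx, 0.65 for H2afj, 0.40 for H2afy2, 0.34 for H3f3b, 0.20 for H3f3a, 0.16 for H2afy and -0.34 for H1f0. No called direction turned, H3f3b and H1f0 passed as rises with H2AZ siRNA in KO (0.24 and 0.21), and H3f3a passed under this scaling in both (0.0052 with H2AZ siRNA and 0.0038 with NT siRNA), as did H2afy with NT siRNA (0.012).

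**Figure D4:**
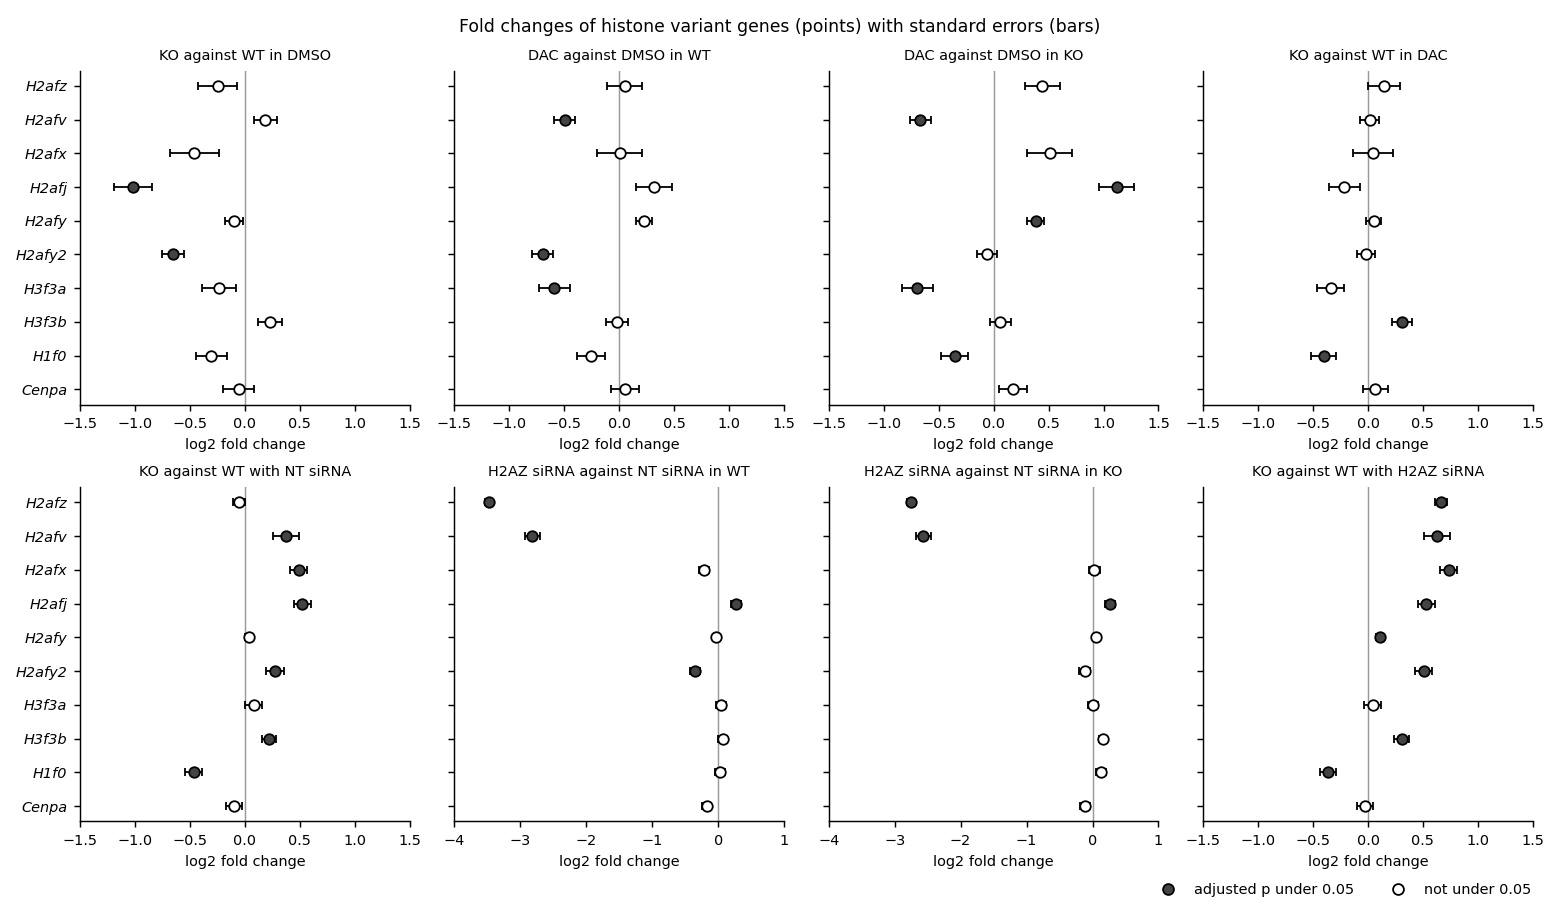
Log2 fold change (x axis; points, with standard errors as bars) of the 10 histone variant genes in 8 comparisons, the DAC table above and the siRNA table below, with filled points for a limma adjusted p under 0.05. H2afz and H2afv stand at -2.75 and -2.57 for H2AZ siRNA in KO and -3.48 and -2.82 in WT, on a wider axis than the other panels, whose values lie between -1.02 and 1.12.

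Genes of the machinery that handles these variants were counted from lists. Of 13 genes of H2A.Z deposition and removal, all tested, DAC gave 4 higher and 0 lower in KO and 1 higher and 0 lower in WT, where 45.2% and 28.3% of all genes tested were called. Ruvbl2, an ATPase subunit shared by SRCAP, Tip60 and INO80, rose with DAC in KO to 23.9 ± 0.274 FPKM, against 13.5 ± 0.154 FPKM with DMSO (0.78 ± 0.05), and in WT to 19.7 ± 0.938 FPKM, against 12.03 ± 0.0148 FPKM (0.67 ± 0.05). With H2AZ siRNA 5 of 13 were lower in KO and 3 of 13 in WT, with none higher, while of all 12668 genes tested 25.5% were called in KO (2404 lower) and 15.3% in WT (1315 lower). The SRCAP subunit Znhit1 fell in KO, at -0.39 ± 0.06, and in WT, at -0.23 ± 0.06. In KO against WT the counts were 1 higher and 2 lower in DMSO, 2 and 1 in DAC, 3 and 5 with H2AZ siRNA and 4 and 4 with NT siRNA, Anp32e among the lower in each, and the shares of all genes called were 42.5, 22.7, 62.9 and 64.1%. The SRCAP subunit Actr6 was lower in KO in DMSO (-0.53 ± 0.13), with H2AZ siRNA (-0.46 ± 0.14) and with NT siRNA (-0.51 ± 0.14). The median log2 fold change of the list was 0.11 for DAC in KO and 0.03 in WT, against 0.0092 and -0.0119 over all genes tested, and -0.02 for H2AZ siRNA in KO and -0.04 in WT, against -0.0559 and -0.0333.

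Of 7 H3.3 chaperone genes, 1 rose and 2 fell with DAC in KO, and 0 rose and 3 fell in WT, at list medians of 0.0006 in KO and -0.23 in WT. Over all genes tested the test called 45.2% in KO and 28.3% in WT, at medians of 0.0092 and -0.0119. Daxx rose with DAC in KO to 15.6 ± 1.58 FPKM, against 10.6 ± 0.189 FPKM with DMSO (0.51 ± 0.12), while its partner Atrx fell (-0.38 ± 0.07), as did the HIRA complex gene Ubn2 (-0.53 ± 0.13). The HIRA complex gene Ubn1 fell with DAC in WT (-0.43 ± 0.07). In KO against WT with NT siRNA Atrx was lower (-1.03 ± 0.18), as with H2AZ siRNA (-0.77 ± 0.18). H2AZ siRNA lowered Daxx in KO (-0.38 ± 0.06) and in WT (-0.21 ± 0.06). Of 5 genes of replicative H3 chaperones and FACT, 2 rose and 1 fell with DAC in KO, and 1 rose and 2 fell with H2AZ siRNA in KO (list medians 0.10 and -0.06), where 45.2% and 25.5% of all genes were called. Asf1b, which hands over H3 during replication, rose with DAC in KO (0.64 ± 0.16) and fell with H2AZ siRNA in KO (-0.67 ± 0.05) and in WT (-0.57 ± 0.05). Of 6 CENP-A deposition genes, 3 rose and 0 fell with DAC in KO, with Mis18a at 0.52 ± 0.10, and 1 rose and 0 fell in WT (list medians 0.28 in KO and 0.01 in WT). In KO against WT 4 of 6 were lower with H2AZ siRNA and 5 of 6 with NT siRNA, at list medians of -0.28 and -0.27, against -0.121 and -0.0961 over all genes, of which 62.9% and 64.1% were called, mostly as lower.

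Of 13 other replacement and testis histone genes, 5 could be tested in the DAC table and only 4 in the siRNA table, and H2afb1, H2afb2, H2afb3 and H1fnt were at 0 in every library of both. The linker histone gene H1fx rose with DAC in KO to 17.4 ± 1.80 FPKM, against 9.34 ± 0.103 FPKM with DMSO (0.83 ± 0.12, adjusted p = 6.3e-04). Its value in WT was -0.36 ± 0.12 (adjusted p = 0.056), and the responses differed by 1.19 ± 0.17 (adjusted p = 0.0013), KO minus WT. Hist3h2ba, which encodes an H2B, was higher in KO in DMSO at 3.99 ± 0.288 FPKM, against 0.628 ± 0.137 FPKM in WT (1.62 ± 0.23, adjusted p = 5.2e-04), and also with H2AZ siRNA (1.44 ± 0.16, adjusted p = 1.6e-05) and NT siRNA (1.54 ± 0.16, adjusted p = 9.2e-06). H2afy3, listed beside the macroH2A genes by symbol, rose with DAC in KO (0.55 ± 0.12, adjusted p = 0.0066) and in WT (0.52 ± 0.12, adjusted p = 0.014).

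Cell cycle genes are given because some histone variants follow the cycle. Of 12 G2/M genes 10 were higher and 1 lower with DAC in KO, and 3 higher and 0 lower in WT, at list medians of 0.52 in KO and 0.20 in WT. Of all genes tested 45.2% were called in KO and 28.3% in WT, at medians of 0.0092 and -0.0119. In KO against WT 1 was higher and 5 lower in DMSO, and 3 higher and 0 lower in DAC, where 42.5% and 22.7% of all genes tested were called. After siRNA, in KO against WT, 1 was higher and 9 lower with H2AZ siRNA, and 1 higher and 9 lower with NT siRNA. Those comparisons called 62.9% and 64.1% of all 12668 genes tested, 5409 and 5122 of them as lower, so most genes called there were lower in KO. The summed level of the 12 G2/M genes was 369 to 383 FPKM in KO DAC, 329 to 355 FPKM in WT DAC, 269 to 272 FPKM in KO DMSO and 295 to 312 FPKM in WT DMSO. After siRNA the sum was 329 to 333 RPKM in KO H2AZ siRNA, 385 to 413 RPKM in WT H2AZ siRNA, 308 to 341 RPKM in KO NT siRNA and 416 to 459 RPKM in WT NT siRNA. Of 12 S-phase genes 4 were higher and 1 lower with DAC in KO, 3 and 2 with DAC in WT, 1 and 2 with H2AZ siRNA in KO, and 0 and 3 with H2AZ siRNA in WT, where the shares of all genes called were 45.2, 28.3, 25.5 and 15.3%. For KO against WT 0 S-phase genes were higher and 4 lower in DMSO, 1 and 0 in DAC, 5 and 3 with H2AZ siRNA and 3 and 4 with NT siRNA. There the shares of all genes called were 42.5, 22.7, 62.9 and 64.1%. Of the fibroblast markers, 2 were higher and 6 lower in KO with DMSO, and 6 and 1 of 9 tested with NT siRNA. Of the mesothelial markers, 7 of 9 were higher in KO with DMSO and 8 of 8 with NT siRNA, where 42.5% and 64.1% of all genes tested were called. Of 6 endothelial, 6 macrophage and 6 epithelial markers, the test held 1, 2 and 3 in the DAC table and then 1, 1 and 0 after siRNA. Their part in the values of the histone variant genes was not tested.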

How the data were processed

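RNA of 22 libraries was analysed, and the 31 CUT&Tag samples of the study were not analysed here. The libraries were made with a stranded total RNA kit, per the labels' protocols. STAR and the mouse build mm10 appear in the submitters' processing notes. Versions, the counting step, its strand setting and the handling of reads with several matches are not stated in the sources used here. The authors deposited FPKM for the DAC table and RPKM for the siRNA table, 1 value per gene and library. Genes were matched by the deposited symbol, and all 10 were found in the RefSeq table of GRCm38.p6, which also gave the promoter sequences.

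Each table was fitted on its own in limma 3.58.1 (R 4.3.3), with the trend option, on log2(value + 1) over its 4 groups and with 5 contrasts. Genes at 1 or more in at least 2 libraries of the DAC table or 3 of the siRNA table were tested, and p-values were adjusted by Benjamini-Hochberg over all genes of the table, with a threshold of 0.05. A fold change on log2(value + 1) understates that of low genes. Steps in the deposited values gave whole reads, within a tolerance of 0.01, for 99.9% of genes above 0 in both tables, and limma-voom on these reads was an alternative. It called 7632 genes for DAC in KO, where limma on FPKM called 7431. The other alternatives were a pseudocount of 0.1, no filter, median centring, a replicate block and leaving out libraries. The script was tested on simulated data. Tables and figures were made with Python 3.11.15, numpy 2.4.6, pandas 2.3.3 and matplotlib 3.10.9.

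The labels do not state that libraries of the same number are paired. Their deviations from the group means correlated at 0.156, 0.144 and 0.27 for H2AZ siRNA against NT siRNA in KO. The correlations were 0.319, 0.109 and 0.023 for KO against WT with NT siRNA, and 0.045, 0.037 and 0.074 with H2AZ siRNA. Such values come from the data and do not establish a pairing. The genes, lists and tests were chosen with earlier results of these data known. Named from each list were, at most, the 2 largest rises and the 2 largest falls among called genes of a comparison. H1fx and H2afy3 are also given for DAC, and Hist1h2ba with NT siRNA, where they ranked lower or were not called. Ywhae, Plec and Lgals1 were named by their likeness, leaving out predicted genes and pseudogenes. Hist1h2ap and Hist1h2ao are given for H2afx outside that rule, because reads may be shared between histone genes.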

Additional observations from a re-analysis of the deposited data

Results flagged for a closer look

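3 differences between the responses of the genotypes passed limma's test of the difference itself. The DAC response of H2afy2 was 0.64 higher on the log2 scale in KO than in WT (0.6391; adjusted p = 0.0081), as H2afy2 fell with DAC in WT and not, by the test, in KO. The DAC response of H2afj was 0.80 higher in KO than in WT (0.8046, adjusted p = 0.034), as H2afj rose with DAC in KO. This H2afj call ended without the filter (adjusted p = 0.059) and with certain single libraries left out, as given above. The H2AZ siRNA response of H2afz was 0.72 higher in KO than in WT (0.7226, adjusted p = 0.012), as the fall was deeper in WT. This H2afz call held in 8 of 12 fits with 1 library left out. It ended without the filter (adjusted p = 0.068) and without the first NT siRNA library of both genotypes (adjusted p = 0.13).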

How the results depend on the processing

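Over the 10 genes and 10 comparisons, 36 values were called, and 24 of these calls held with each library left out in turn. Of 1700 values under the alternatives, 1592 kept their side of the threshold, 64 lost the call, 44 gained it, and no called value changed sign, while 56 values called in neither setting did (at most 0.147 in size as reported). The pseudocount of 0.1 moved no call, no filter ended 7, median centring ended 1 and added 8, and limma-voom on recovered reads added 4. The calls added by limma-voom were H2afz and H2afx for DAC in KO, H2afy for DAC in WT and H3f3a for KO against WT in DAC (adjusted p = 0.037). Leaving out both libraries that stand apart in each table ended 4 and added 18, and gave 7 genes called for KO against WT in DMSO (2 with all libraries), 7 for DAC in WT (3), 8 for DAC in KO (5), 4 for the difference of the DAC responses (2) and 0 for the difference of the siRNA responses (1). These libraries were picked from the same data, so calls added without them are not taken as support. With no filter 0 genes were called for KO against WT in DAC (2), 1 for the difference of the DAC responses and 0 for that of the siRNA responses. The shares of all genes called with no filter were 12.4% (22.7% with it) and 13.6% (24.1%) of 30078 genes, and 0% (0.00789%) of 32935. Median centring gave 5 for H2AZ siRNA in KO (3), where it called 26.7% of all genes (25.5%). With the replicate block, 1 gene was called for KO against WT in DAC (2 without it) and 4 for H2AZ siRNA in KO (3 without it), and it ended the call of H1f0 for DAC in KO as well and changed no other. With that block 18% of all genes tested were called for KO against WT in DAC (22.7% without it) and 29.3% for H2AZ siRNA in KO (25.5%).

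With each library left out in turn, the genes called numbered 2 to 3 for KO against WT in DMSO, 1 to 4 for DAC in WT, 4 to 7 for DAC in KO, 0 to 3 for KO against WT in DAC and 1 to 2 for the difference of the DAC responses. They numbered 5 to 6 for KO against WT with NT siRNA, 2 to 4 for H2AZ siRNA in WT, 2 to 4 for H2AZ siRNA in KO, 7 to 8 for KO against WT with H2AZ siRNA and 0 to 1 for the difference of the siRNA responses. Of all genes, the shares called in the first 4 of these siRNA table comparisons were 57.3 to 64.5%, 8.88 to 16.6%, 16.8 to 27.3% and 55.7 to 64.1%. With 1 DAC library left out, the shares in the DAC table comparisons, in the order above, were 40.7 to 45.5%, 22 to 30.1%, 39.4 to 48.4%, 15.7 to 23.7% and 20.1 to 24.5%. The causes were not tested. With 2 DMSO libraries per genotype, a group left with 1 library is assumed to vary like the others. Over all genes tested, the number called moved by more than 1.5 times to 2491 without WT DMSO replicate 2 for DAC in WT (4658), to 2129 without KO H2AZ siRNA replicate 2 for H2AZ siRNA in KO (3235), to 1125 and 1205 without WT H2AZ siRNA replicates 1 and 3 for H2AZ siRNA in WT (1933), and, for the difference of the siRNA responses (1), to between 0 and 2 with a library left out and to 3 with median centring. The fewest reads behind a value of the 10 genes were 85, for H2afv in WT H2AZ siRNA replicate 3.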
